A study of Mus musculus with 11 samples.

Results

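The signal transducer and activator of transcription (STAT) genes encode transcription factors that wait in the cytoplasm. A cytokine or hormone receptor activates Janus kinases (JAKs), which phosphorylate the STAT protein, and the STAT dimer then moves to the nucleus and binds DNA. In the mammary gland STAT5A and STAT5B carry the prolactin signal that drives alveolar development and milk gene transcription, and STAT3 is known for its role in involution after weaning. STAT2 works downstream of interferon receptors, STAT4 downstream of interleukin-12 in lymphocytes, and STAT6 downstream of interleukin-4 and interleukin-13.

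The genes described here are 6 listed members of the family, Stat5a, Stat5b, Stat3, Stat2, Stat4 and Stat6, found by their symbol in the expression table. Of these, 5 had a locus in the table, with 7 loci among 30305, and they are set beside 14847 named genes in all. Stat6 transcript level was not analysed here. The series profiled wild-type mouse mammary gland, strain background 129SV::FVB/N::C57BL/6, on day 6 and day 13 of pregnancy and at parturition (L1), to follow STAT5 binding, the promoter mark H3K4me3 and transcription. The values below come from 1 RNA-seq library of whole gland at L1, collected without lymph nodes, so every level is a description of that library, with no error between animals and no p-value. The sources used here state neither the age of the mice nor how many animals the library holds. Levels are in FPKM, a fragment count corrected for transcript length and library size, which allows genes of different length to be set side by side. The sequencing depth is unknown, because the table gives no counts.

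The tissue carried the markers of its label. All 8 markers of alveolar luminal epithelium reached 10 FPKM, against 27.9% of named genes, with a median of 411 FPKM. Of 6 measured myoepithelial markers, 5 reached 10 FPKM. Adipocyte markers had a median of 69.0 FPKM, fibroblast markers 29.1, skeletal muscle markers 26.8, endothelial markers 7.05 and myeloid markers 5.54. Markers of T, NK and B cells had a median of 0.65 FPKM, and 2 of 10 reached 1 FPKM, against 73.6% of named genes. In whole tissue, fewer cells of a type and less RNA per cell cannot be told apart.

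Stat5a had the highest transcript level of the measured STAT genes, followed by Stat3 and Stat5b, then Stat2, while Stat4 was listed at 0. Stat5a, first described in sheep as the mammary gland factor that binds milk protein gene promoters, had 41.8 FPKM at its main locus. A second locus that carried the same symbol had 3.87 FPKM, which was 9.25% of the first. Stat3, the factor of the interleukin-6 and leukemia inhibitory factor pathway, had 18.6 FPKM at its single locus. Stat5b, the close relative of Stat5a that also serves the growth hormone receptor, had 17.6 FPKM at one locus and was listed at 0 at another. Stat2, the interferon-specific member, had 7.78 FPKM at its single locus. Stat4, the interleukin-12 factor of T and NK cells, had a single locus, and its value was 0.

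**Figure D1:**
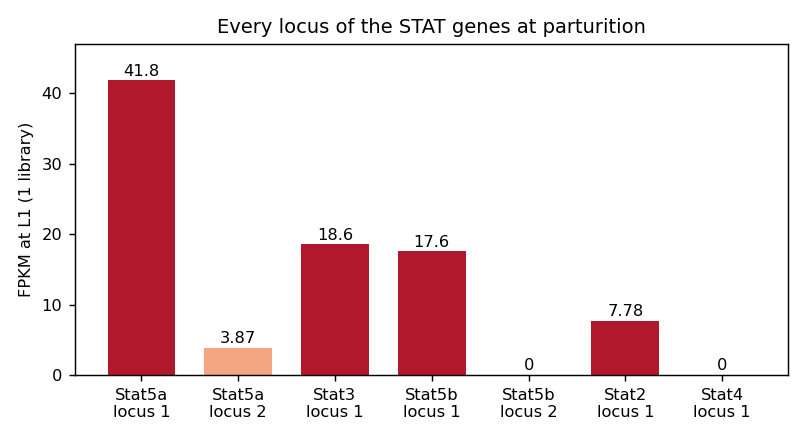
FPKM at L1 of every locus of the 5 measured STAT genes, with genes ordered by their highest locus and 1 bar per locus from 1 library. Dark bars are the highest locus of each gene and the pale bar is the second locus of Stat5a. Stat5a stands at 41.8, above Stat3 at 18.6 and Stat5b at 17.6, and the second Stat5b locus and Stat4 are at 0.

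As ratios, the steps from Stat5a to Stat3 and from Stat5b to Stat2 were of 2.25 and 2.26 times. The Stat5a level was also 2.38 times that of Stat5b and 5.38 times that of Stat2. Between these steps, Stat3 and Stat5b differed by a ratio of 1.06, and with 1 library there is no spread to set that order against. Stat5a and Stat5b together held 69.3% of the summed FPKM of the 5 measured STAT genes, of which Stat5a alone held 48.8% and Stat5b 20.5%. Stat3 held 21.7% and Stat2 9.07%. With the loci of each gene added up, the STAT5 share was 70.6%. Because Stat5a and Stat5b are alike in their coding sequence, reads could be split between them, and the sources used here do not say how the authors assigned shared reads, so the Stat5a to Stat5b ratio is uncertain.

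Most of the measured STAT genes stood in the upper part of the distribution of named genes. Of the 5 measured genes, 4 reached 1 FPKM (Stat5a, Stat3, Stat5b and Stat2), against the 73.6% of all named genes with at least that level. At 10 FPKM there were 3 of 5 (Stat5a, Stat3 and Stat5b), against 27.9% of named genes. Their median was 17.6 FPKM, against 3.90 FPKM for all named genes. Stat5a ranked 1034 of 14847, with 93.0% of named genes below it. Stat3 had 84.0% of named genes below it, Stat5b 83.1% and Stat2 66.6%. Stat4 shared the value of 0 with 598 other named genes, and genes listed at 0 made up 4.03% of the named genes. No fold is given against it, since a listed 0 is not a measured absence.

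**Figure D2:**
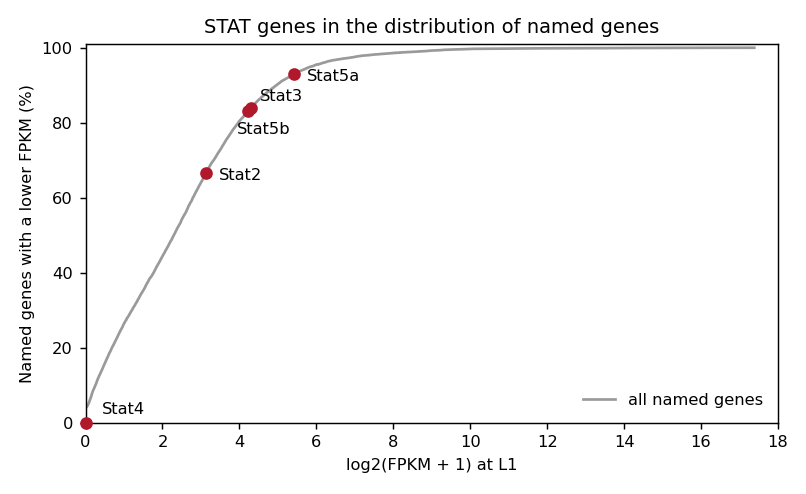
Share of the 14847 named genes with a lower FPKM (y axis, percent) against the level at L1 on the log2(FPKM + 1) scale (x axis), with the grey line for all named genes and red points for the 5 measured STAT genes. Stat5a lies at 93.0%, Stat3 and Stat5b lie next to each other at 84.0% and 83.1%, Stat2 lies at 66.6% and Stat4 at the origin.

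The way the assembly cut genes into loci touched 2 of the 5 STAT genes. Of all named genes, 25.8% had several loci. Over the 3785 of them with a level above 0, the second locus stood at a median of 21.6% of the highest, with quartiles of 5.11% and 48.7%, and the 9.25% of Stat5a lay between the lower quartile and the median. No locus with several symbols named a STAT gene. Loci without any symbol held 53.3% of the summed FPKM in the table, and whether any of them carries STAT transcripts was not tested. The library kit is not described as keeping strand, so reads from a gene and from an antisense partner cannot be told apart.

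The STAT genes were also set beside 50 measured transcription factors of other signal-dependent families (NF-kB, IRF, SMAD, NFAT, CREB and ATF, AP-1, TCF, GLI, TEAD and Notch factors). Only Atf4, a factor of the stress and amino acid response, stood above Stat5a, at 194 FPKM. Jund, an AP-1 subunit, was next below Stat5a at 41.3 FPKM, a difference too small to order in 1 library, and Irf3, a factor of innate immunity, followed at 38.3 FPKM. Those 3 were the only ones above Stat3 and Stat5b. Stat2 had 11 of the 50 above it and 39 below. Stat4 had 49 above it and was level with Lef1, a Wnt pathway factor, which was also listed at 0. The STAT genes had a median of 17.6 FPKM, against 4.24 FPKM for the 50 other factors. With loci added up, 1 factor again stood above Stat5a, while 14 stood above Stat2.

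**Figure D3:**
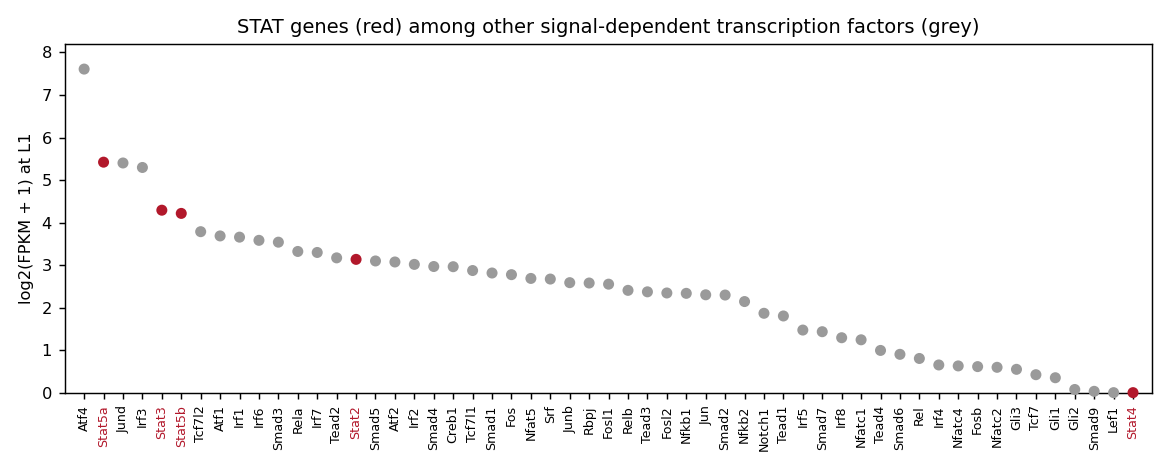
Level at L1 on the log2(FPKM + 1) scale (y axis) of the 5 measured STAT genes (red) and 50 other signal-dependent transcription factors (grey), ordered from high to low along the x axis, 1 library. Stat5a comes second after Atf4, Stat3 and Stat5b follow Jund and Irf3, Stat2 stands in the upper part of the grey points and Stat4 ends the row at 0 with Lef1.

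Of the upstream receptors, those of the STAT5 pathway that the gland is known for stood apart from the blood cell receptors of the same class. The growth hormone receptor gene Ghr had 55.6 FPKM, above Stat5a itself, and the prolactin receptor gene Prlr had 17.1 FPKM. The Stat5a level was 2.45 times that of Prlr. The other 8 receptor genes of the class ranged from 0.26 FPKM in Il7r, the interleukin-7 receptor of lymphocytes, to 4.09 FPKM in Csf2ra, a chain of the GM-CSF receptor. Between them lay the shared cytokine chain gene Il2rg at 3.59 FPKM, Il3ra at 1.73 and Csf2rb at 1.49. The erythropoietin receptor gene Epor stood at 0.79 FPKM and Il2rb at 0.60. In all, 6 of the 10 reached 1 FPKM, against 73.6% of named genes, and their median was 1.61 FPKM against 3.90 for all named genes.

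Most receptor genes that signal to STAT3 reached 1 FPKM, while the 3 measured ligand genes did not. The ligand gene Il6 was not analysed here. Il6st, which encodes the shared chain gp130, had 10.04 FPKM, and the Stat3 level was 1.85 times that. Lifr, the receptor chain for leukemia inhibitory factor, had 12.6 FPKM, the interleukin-6 receptor gene Il6ra 10.9, Il10rb 15.5 and Il11ra1 5.92. The oncostatin M receptor gene Osmr stood at 3.35 FPKM, Il10ra at 1.09 and the leptin receptor gene Lepr at 0.35. Of the ligands, Il11 had 0.38 FPKM, Lif 0.26 and Osm 0.07. Thus the 3 measured ligands and Lepr were the 4 of 11 genes under 1 FPKM. The other 7 reached it, against 73.6% of named genes, and the median of the 11 was 3.35 FPKM against 3.90.

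Receptor genes of the other STAT proteins spread widely in level within each list. For STAT2, the interferon gamma receptor gene Ifngr1 had 54.2 FPKM and Ifngr2 11.3, and the type I interferon receptor genes Ifnar2 and Ifnar1 had 22.2 and 3.96 FPKM. Irf9, the DNA-binding partner of STAT2, had 11.2 FPKM, 1.44 times the level of Stat2. The interferon lambda receptor gene, listed as Il28ra, had 1.35 FPKM, so that all 6 genes of this list reached 1 FPKM, against 73.6% of named genes, with a median of 11.3 FPKM. For STAT6, the interleukin-4 receptor gene Il4ra had 14.0 FPKM and the interleukin-13 receptor gene Il13ra1 1.86, while Il4 itself was listed at 0. For STAT4, Il12rb1 had 2.85 FPKM and Il12rb2 0.74, the only measured genes of 5 on that list.

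All 4 JAK genes were above 1 FPKM, as were 73.6% of named genes, and their median was 6.73 FPKM against 3.90. Jak1, which pairs with gp130 and interferon receptors, had 18.2 FPKM, close to the level of Stat3. Jak2, the kinase of the prolactin and growth hormone receptors, had 7.76 FPKM, so the Stat5a level was 5.39 times that of its kinase. Jak3, known mainly from lymphocytes, had 5.70 FPKM. Tyk2, the kinase of interferon and interleukin-12 receptors, had 3.93 FPKM at its highest of 3 loci and 7.99 FPKM summed over them, so its order against Jak2 depends on how loci are counted.

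**Figure D4:**
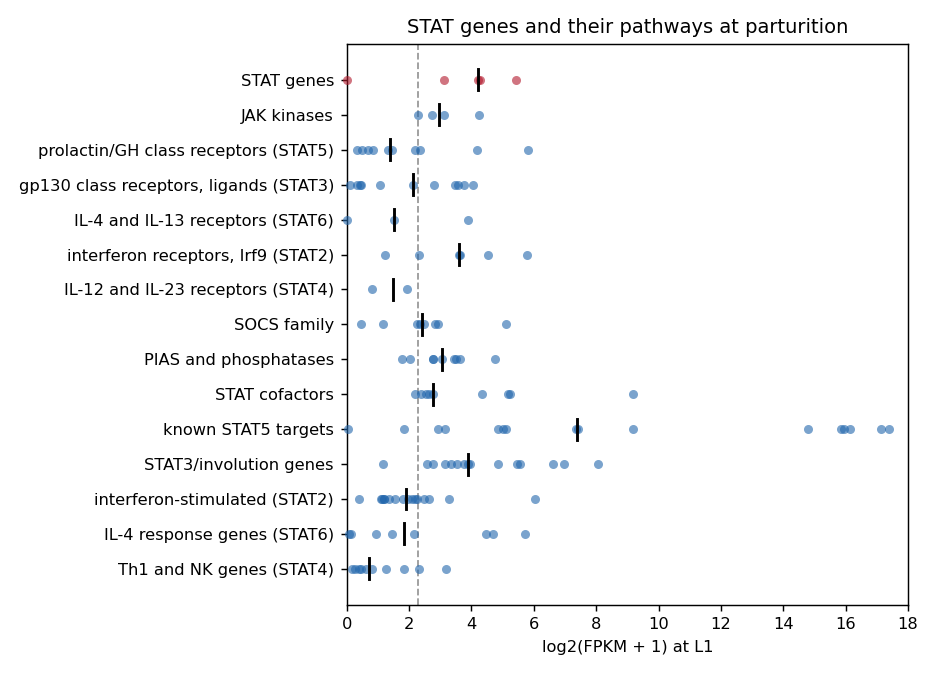
Level at L1 on the log2(FPKM + 1) scale (x axis) of the measured STAT genes (red, top row) and of the genes of 14 pathway lists (blue), 1 point per gene, 1 library. Black bars are list medians and the dashed line is the median of all named genes, 3.90 FPKM; the STAT genes have a median of 17.6 FPKM, known STAT5 targets the highest and Th1 and NK genes the lowest list median.

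Cish led the suppressor of cytokine signalling (SOCS) genes. Some genes of this family are induced by STAT proteins and shut the receptor off. Cish, a known STAT5 target of this family, had 33.2 FPKM, which put Stat5a at 1.26 times its level. The next were Socs2, also listed as a STAT5 target and acting on growth hormone signalling, at 6.61 FPKM and Socs4 at 6.16. Socs6 had 4.56 FPKM, Socs5 4.13 and Socs7 3.75. Socs3, the inhibitor that STAT3 induces and that acts on gp130, had 1.25 FPKM, and the Stat3 level was 14.9 times that. Socs1, the inhibitor of interferon signalling, was the lowest at 0.38 FPKM. In all, 7 of the 8 genes reached 1 FPKM, against 73.6% of named genes, and their median was 4.34 FPKM against 3.90.

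Several phosphatases and PIAS proteins limit STAT activity in the nucleus and cytoplasm. All 9 genes of this list reached 1 FPKM, against 73.6% of named genes. Ptpn2, a phosphatase that removes the activating phosphate from nuclear STAT proteins, led them with 25.9 FPKM. Ptpn11 and Ptpn1 had 11.4 and 10.5 FPKM. Ptpn6, a phosphatase of blood cells, had 3.08 FPKM at its highest of 4 loci and 7.87 summed. Dusp3 had 7.27 FPKM. The PIAS genes ran from 2.43 FPKM in Pias3, whose product binds STAT3, through 5.75 in Pias4 and 5.84 in Pias1 to 9.85 in Pias2. The median of the 9 was 7.27 FPKM, against 3.90 for all named genes.

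All 9 measured cofactor genes were above 1 FPKM, against 73.6% of named genes, with a median of 5.82 FPKM against 3.90. Elf5, the alveolar transcription factor that acts beside STAT5, had 577 FPKM, 13.8 times the level of Stat5a. Nfib, a factor of milk gene enhancers, had 36.8 FPKM, the glucocorticoid receptor gene Nr3c1 34.8 and Nmi, a STAT-interacting protein gene, 19.2. The acetyltransferase gene Crebbp was the lowest at 3.53 FPKM.

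Genes known as targets of each STAT protein differed widely in level between the lists. These lists were drawn from common knowledge, with earlier results of this table known, so their medians are descriptions. The 16 known STAT5 targets had a median of 166 FPKM, and 15 of them reached 1 FPKM, against 73.6% of named genes. The highest was the beta-casein gene Csn2 at 170861 FPKM, 4085 times the level of Stat5a, followed by Csn1s1 at 142389, Csn1s2a at 72910 and Wap at 63664. The lowest was Tnfsf11, the RANKL gene that hormone-sensing cells use in pregnancy, at 0.03 FPKM. The genes of the list that are not milk proteins spread widely, from 577 FPKM in Elf5 to the 0.03 FPKM of Tnfsf11. Between these lay Akt1 at 169 FPKM, Id2 at 163, Cish at 33.2, the survival kinase gene Pim1 at 31.0 and Ccnd1 at 28.0. Lower still, Bcl2l1 had 7.83 FPKM, Socs2 6.61 and Igf1 2.55.

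Genes linked with STAT3 and involution had a median of 14.0 FPKM, and all 15 reached 1 FPKM, against 73.6% of named genes. The lysosomal protease gene Ctsb had 268 FPKM and Ctsl 97.1, both of which many cells express without STAT3. Lbp, an acute phase gene, had 126 FPKM and Pik3r1, a regulatory subunit gene of PI3 kinase, 46.0. Socs3 was the lowest, at the 1.25 FPKM given above.

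Interferon-stimulated genes were mostly low but present. Of 16, 15 reached 1 FPKM, against 73.6% of named genes, and their median was 2.72 FPKM, below the 3.90 of all named genes. Bst2, a surface protein gene, stood apart at 64.9 FPKM, followed by Irf7 at 8.83, the RNA sensor gene Ddx58 at 5.30 and Ifi44 at 4.55. The antiviral gene Mx1 was the lowest at 0.31 FPKM.

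The 8 measured interleukin-4 response genes had a median of 2.59 FPKM. Retnla, a product of alternatively activated macrophages that fat tissue also makes, had 52.1 FPKM. Gata3 had 24.9 FPKM and the E-cadherin gene Cdh1 21.4, both of them genes of luminal epithelium too, and Arg1 had 3.44. The chemokine gene Ccl22 was the lowest at 0.06 FPKM.

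Genes of Th1 and NK cells, where STAT4 acts, had the lowest median of the pathway lists, 0.66 FPKM over 10 genes, of which 4 reached 1 FPKM, against 73.6% of named genes. Il18r1 had 8.15 FPKM, Il18rap 4.01, the granzyme gene Gzmb 2.62 and the homeobox gene Hlx 1.42. The perforin gene Prf1 was the lowest at 0.14 FPKM. Beside the 0 of Stat4, the T cell genes Cd3e, Cd4 and Cd8a stood at 0.55, 0.32 and 0.20 FPKM, and the NK receptor gene Ncr1 at 0.76. The part of these cells in the Stat4 value was not tested.

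Sequence around the annotated starts was examined for all 6 genes in RefSeq windows of build GRCm38.p6, each 250 bases before to 50 after a start, 300 bases in all. Stat5a, Stat5b and Stat4 had 2 windows each and the others 1, which made 9. The Stat5b window at its upstream start held 82.7% G and C, against a median of 52.7% over 32851 windows of all genes. Its downstream window held 47.3%. For Stat5a the upstream window held 57.7% and the downstream one 67.7%. Stat3 had 60.7%, Stat2 59.3%, Stat6 57.3% and Stat4 50.7% and 46.0%.

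The downstream starts of Stat5a and Stat5b resembled each other. Within the 250 bases before each start, the best local alignment of these windows covered 94 columns, of which 74 were identical (78.7%), from positions -103 to -12 of Stat5a and from -94 to -3 of Stat5b, counted back from the start. The longest run of identical bases was 16, and these were the only windows of the 32851, searched on both strands, that held it. Over the 33 pairs of windows of different STAT genes the next longest run was 11. The stretches are shown because they mark what the Stat5a and Stat5b starts have in common, with the shared run in capitals. The Stat5a stretch lies at chr11:100860445-100860474 on the plus strand and the Stat5b stretch at chr11:100822571-100822600 on the minus strand.
Stat5a: tttgaggAGGAAATCGCTGCTCTctgctcc
Stat5b: ttttagaAGGAAATCGCTGCTCTttgcttc

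In all, 3 motifs of STAT binding were searched for on both strands of the 300 base windows. The STAT dimer motif TTCNNNGAA was found in 0 of the 9 windows and in 8.30% of all windows. The wider motif with 4 bases of any kind between TTC and GAA, which STAT6 is known to bind, was found in 1 of 9, in Stat2, and in 6.95% of all windows. The interferon response motif, GAAA repeated after 2 bases of any kind, was found in 2 of 9, in Stat2 and in the downstream window of Stat4, and in 3.44% of all windows. The matches in Stat2 did not overlap. They are printed with the motif in capitals, because Stat2 works downstream of interferon. The first, at position -222, reads as the motif on the opposite strand and lies at chr10:128270268-128270293, and the second, at position -210, lies at chr10:128270280-128270305. The match in Stat4, at position -97, lies at chr1:52008135-52008160. All 3 are printed on the plus strand. A match is a stretch of letters and not a shown binding site, a missing match says only that these letters are not in the window, and no binding data were placed on these windows.
Stat2, interferon response motif: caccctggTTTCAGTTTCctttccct
Stat2, wider motif: agtttcctTTCCCTAGAActcacggt
Stat4, interferon response motif: tgtcttcaGAAAGTGAAAtttagaac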

How the data were processed

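RNA of L1 mammary gland was poly(A)-selected, made into a TruSeq library and sequenced on an Illumina HiSeq, per the labels' protocols. For this library the submitters' processing notes name CASAVA, TopHat and mm9. The sources used here name neither their versions nor the assembler or the tool behind the expression values. The authors' deposited table gives FPKM per locus of a transcript assembly, with values at L1.

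A gene took its highest locus among loci with 1 symbol. Of 30305 loci, 117 with several symbols and 8230 with none were left out of gene levels. Percentiles are shares of named genes with a lower FPKM. No minimum was applied, and the pseudocount of 1 served for figures and 1 alternative. Genes missing under their listed symbol were looked up under older symbols in RefSeq. Calculations used Python 3.11.15, pandas 2.3.3 and Biopython 1.88, and were tested on simulated data.

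The genes and the 15 pathway and 8 marker lists were chosen with earlier results of these data known. All STAT, JAK, receptor, SOCS, PIAS and phosphatase genes may be named, and of the other lists the 4 highest and the lowest. Genes outside this rule, among them Pim1, Akt1, Id2, Ccnd1, Bcl2l1, Igf1, the lymphocyte genes and the neighbouring genes, were named after their values were seen. A single stage gave no pattern to match, so no gene is named for likeness. The STAT5A and H3K4me3 lists are in mm9, for which no annotation was at hand, and were not used here. Protein sequences were not compared. Single values of some listed genes are not reported here.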

Additional observations from a re-analysis of the deposited data

How the results depend on the processing

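With 1 library, a level or count was taken as moved when it changed by more than 1.5 times, and a percentile when it changed by more than 5 percentage points. By this measure 95 of 119 recomputed values stayed and 24 moved. The levels of the 5 measured STAT genes and the ratios of Stat5a to the others stayed with loci added up and, for ratios, with a pseudocount of 1. Among genes at or above 1 FPKM alone, the percentile was 78.2 for Stat3, 77.1 for Stat5b and 54.6 for Stat2. That minimum removes low genes and so raised the medians to 6.76 FPKM for all named genes, 3.84 for prolactin and growth hormone class receptors, 10.04 for gp130 class genes, 7.90 for interleukin-4 receptors, 2.85 for interleukin-12 receptors, 21.4 for interleukin-4 response genes and 3.31 for Th1 and NK genes. With loci added up, the interleukin-12 receptor median was 2.998 FPKM, Jak2 stood at 0.97 times Tyk2 where it was 1.97 times by the highest locus, and Ptpn2 at 3.30 times Ptpn6 where it was 8.43 times. These last ratios were chosen after seeing the data. At a minimum of 5 FPKM the counts were 6574 for all named genes, 2 for prolactin class, 1 for interleukin-4 and 0 for interleukin-12 receptors, 3 for SOCS genes, 3 for interferon-stimulated, 3 for interleukin-4 response and 1 for Th1 and NK genes, and 22 for other transcription factors. In the 150 bases nearest the start, the wider STAT motif was found in 0 of 9 STAT windows and the interferon response motif in 1. No paired analysis was possible because each group with values holds 1 library, which also leaves no replicate to leave out. Depth is unknown, so low values such as those of Socs1, Osm and Stat4 carry no interval.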

Other observations

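In the order of protein-coding genes in GRCm38.p6, Stat5b, Stat5a and Stat3 are direct neighbours, and their levels at L1 were 17.6, 41.8 and 18.6 FPKM. On the Stat5b side the next gene, Ghdc, had 4.16 FPKM, and Hcrt and Kcnh4 beyond it were not analysed here. On the Stat3 side, Cavin1, a gene of caveolae listed as Ptrf, had 34.1 FPKM, the proton pump subunit gene Atp6v0a1 16.9 and the lysosomal enzyme gene Naglu 3.61. Stat5a had the highest level of the measured genes in this stretch, and Cavin1 stood below it and above Stat3 and Stat5b.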
